A study of Bos grunniens with 9 samples.

Results

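The 3 libraries of the anestrous yak ovary were compared with the 6 libraries of the ovary at estrus and in pregnancy, pooled as the 2 active stages. All 9 libraries of the series entered the comparison, grouped by stage alone and not by any measured value. The comparison itself was chosen with earlier results of these data known. The ovaries came from yaks (Bos grunniens) aged 6 years, collected in April for anestrus, August for estrus and December for pregnancy, with 3 libraries per stage, so that stage and month cannot be told apart. Tissue was taken within an hour of euthanasia from the ipsilateral ovary and frozen. The labels call the 3 libraries of a stage biological replicates without naming the animals, so a p-value here covers the scatter among the libraries, which may be technical.

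Ribosome profiling reads the short mRNA pieces that sit inside a ribosome and so escape nuclease digestion. A footprint count on a gene therefore follows the amount of its mRNA and the number of ribosomes on it, which these libraries do not separate. In seasonal breeders anestrus is the time without ovulation: follicles still grow, but gonadotropin drive is low and no corpus luteum forms. Estrus brings a follicle to ovulation, after which granulosa and theca cells become the corpus luteum that makes progesterone through pregnancy. Theca cells make androgen, granulosa cells turn it into estrogen, and both build their steroids from cholesterol that is taken up or made through the mevalonate pathway. In whole tissue, fewer cells of a type and less RNA per cell cannot be told apart.

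Every anestrus library was deeper than every other library. Total counts were 15421302, 28937420 and 11996151 in anestrus, 6107178, 11074729 and 6078238 at estrus and 9075671, 4969172 and 1468504 in pregnancy. An exact permutation test on log10 totals, over 84 arrangements of the libraries, gave a two-sided p of 0.0357. Levels are given in CPM, the counts of a gene per 1e+06 counts of its library. The level that 3 counts give was 0.104 CPM in anestrus replicate 2 and 2.04 CPM in pregnancy replicate 3, so low genes were measured more finely in anestrus. Pregnancy replicate 3 lay alone at one end of the first principal component (30.3% of the variance), and anestrus replicate 2 at the far end of the second (18.2%). Where a printed log2 difference of a gene moved by over 1.5 times when 1 library was left out, it is given with and without that library. Correlations of log2 CPM across genes had a median of 0.936 within anestrus, 0.934 between anestrus and the active libraries and 0.921 within the active libraries, as a description. Defining markers of granulosa (8 of 8), theca (4 of 4) and stroma (5 of 5) had counts in these libraries, as had 8 of 9 oocyte markers at a summed 1.35 to 19.1 CPM.

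After a filter on low counts 13936 genes were tested, each described by 2 measures. The first was the log2 difference of anestrus minus the mean of estrus and pregnancy, with its standard error (SE), from edgeR's quasi-likelihood test. The second asked whether a gene was set apart, meaning that its 3 anestrus values all lay above, or all below, its 6 active values in CPM scaled by the trimmed mean of M-values (TMM). No gene passed a Benjamini-Hochberg adjusted p of 0.05 in edgeR (0 of 13936, 0%); the smallest adjusted p was 0.418. At an unadjusted p under 0.05 stood 976 genes (7%), 615 of them higher in anestrus (4.41%) and 361 lower (2.59%). DESeq2 called 24 of 13881 genes (0.173%), 13 higher and 11 lower, and limma-voom called 0 (0%) with 1322 genes at an unadjusted p under 0.05. Against estrus alone 981 genes (7.04%) stood at an unadjusted p under 0.05 in edgeR, and against pregnancy alone 951 (6.82%), both with the same anestrus libraries. No gene named here is a called difference in edgeR, and the values are given as levels, log2 differences and counts.

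In the authors' deposited table, 31 genes passed an FDR of 0.05 for anestrus against estrus and 36 for anestrus against pregnancy, which share the anestrus libraries, and 5 passed both in 1 direction. Set apart from both active stages were 321 genes (2.3%): 173 above (1.24%) and 148 below (1.06%). Their median log2 difference was 0.67 for the genes above and -0.68 for those below, against 0.01 over all genes tested. If the libraries did not differ by stage, 1 of 84 arrangements would put the 3 anestrus values all above the other 6. Another 1 of 84 would put them all below. The shares seen lie close to these, so the number of genes set apart shows no excess over interchangeable libraries. Anestrus replicate 2 was the highest of the 9 libraries in 110 of the 173 and the lowest in 102 of the 148. Over all genes tested, it was the highest anestrus library in 37.3% and the lowest in 39.7%. Within the active libraries, 5 of the 173 and 5 of the 148 differed between pregnancy and estrus at an unadjusted p under 0.05, where 7.43% of all genes did. With every library thinned to the depth of the shallowest, 141 genes lay above (1.30% of 10807 tested) and 114 below (1.05%). Of the 321, 95 were among them in the same direction.

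Among the genes set apart above, TPPP3, a protein that promotes the assembly of tubulin, and OVGP1, the glycoprotein secreted by the oviduct's epithelium, had the smallest unadjusted p of those reported here. For TPPP3, anestrus had 20.5, 21.2 and 20.3 CPM, estrus 14.2, 15.4 and 9.77 CPM and pregnancy 6.25, 6.90 and 5.36 CPM. Estrus lay between anestrus and pregnancy for this gene, with no overlap between any of the stages. Its log2 difference was 1.19 ± 0.20 (edgeR adjusted p = 0.505), 0.65 ± 0.23 over estrus and 1.72 ± 0.25 over pregnancy. OVGP1 (ENSBTAG00000005973) had 53.8, 77.6 and 18.4 CPM in anestrus, 5.16, 0 and 1.52 CPM at estrus and 3.07, 6.70 and 5.96 CPM in pregnancy. The lowest anestrus value exceeded the highest active value, but the anestrus values themselves spread widely. Its log2 difference was 3.94 ± 0.71 (edgeR adjusted p = 0.505), and a second row of the symbol had 2.65 ± 1.20. Footprints are short, so reads of related genes may be divided between rows, and the value of any one row is uncertain to that extent. CAPS, a calcium-binding protein, had 8, 5.61 and 0.564 CPM in anestrus and 0 to 1.19 CPM in the active libraries, and overlapped through anestrus replicate 3.

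These genes belong to a list of oviduct and surface epithelium, cells that border the ovary or touch it. Of 16 tested members 12 lay above 0 (75% against 51.4% of all genes), 4 at an unadjusted p under 0.05 higher in anestrus (25% against 4.41%) and 0 lower, with a median log2 difference of 0.42. With replicate 2 of anestrus left out the median was 0.44, with replicate 1 left out 0.00 and with replicate 3 left out 0.77. Summed levels of 7 defining markers of these cells, all with counts, were 213 to 250 CPM in anestrus and 109 to 434 CPM in the active libraries; their part in the OVGP1 and TPPP3 values was not tested.

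**Figure D1:**
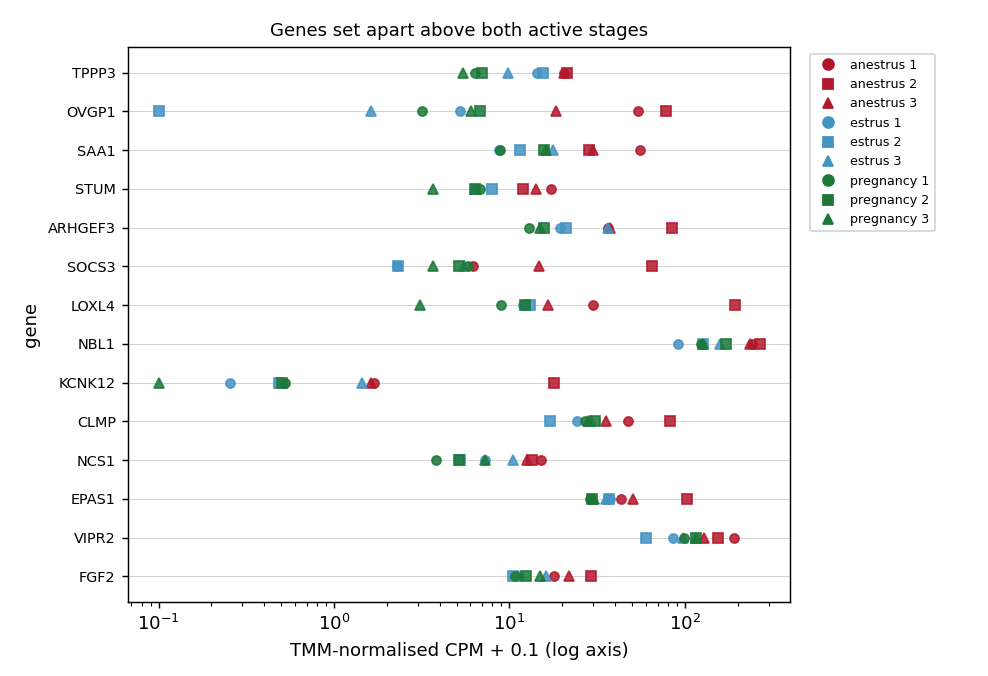
TMM-normalised CPM plus 0.1 on a log axis for 14 leading genes set apart above both active stages, one point per library, coloured by stage and shaped by replicate. All 3 anestrus points of each gene lie right of the 6 active points; the gap is wide for OVGP1 and narrow for ARHGEF3, SOCS3 and KCNK12.

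SAA1, an acute-phase protein, and SOCS3, the feedback inhibitor of cytokine signalling through JAK and STAT proteins, were both set apart above. For SAA1 (ENSBTAG00000049589) the anestrus values were 55.3, 28.2 and 29.9 CPM, against 8.6, 11.4 and 17.7 CPM at estrus and 8.69, 15.6 and 16.1 CPM in pregnancy. The log2 difference of SAA1 was 1.56 ± 0.31. It was 1.18 when anestrus replicate 1, the highest library, was left out, and 1.74 when anestrus replicate 2 was. A second SAA1 row lay the other way, at -0.44 ± 0.50. SOCS3 had 6.08, 65.1 and 14.7 CPM in anestrus, 2.19, 2.22 and 5.39 CPM at estrus and 5.72, 5.07 and 3.57 CPM in pregnancy. Anestrus replicate 1 exceeded the highest active library of SOCS3 only narrowly, and anestrus replicate 2 stood far above all others. Its log2 difference of 2.84 ± 0.61 became 1.38 without anestrus replicate 2.

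LOXL4, NBL1 and FGF2 encode secreted proteins. LOXL4, a lysyl oxidase that cross-links collagen, had 29.8, 193 and 16.5 CPM in anestrus, 11.9, 13.1 and 12.3 CPM at estrus and 8.80, 12.2 and 2.98 CPM in pregnancy. Its log2 difference of 2.95 ± 0.63 was mostly that of anestrus replicate 2 and was 1.18 without it. NBL1, a secreted antagonist of bone morphogenetic proteins, was even across anestrus at 240, 269 and 236 CPM, with 90.9, 126 and 159 CPM at estrus and 124, 171 and 127 CPM in pregnancy. The NBL1 groups were well separated, with a log2 difference of 0.90 ± 0.20 and 0.85 without anestrus replicate 2. FGF2, a fibroblast growth factor that acts on vessels and granulosa cells, had 17.9, 28.9 and 21.9 CPM in anestrus and 10.3 to 16 CPM (median 11.8) in the active libraries. Its log2 difference of 0.88 ± 0.23 was nearly the same against estrus (0.87 ± 0.27) and against pregnancy (0.88 ± 0.28), which share the anestrus libraries.

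EPAS1, the alpha subunit of a hypoxia-inducible factor, was set apart with 43.1, 102 and 50.6 CPM in anestrus against 28.6 to 37.2 CPM (median 33.0) in the active libraries. The active libraries of EPAS1 lay within a narrow band, and anestrus replicates 1 and 3 were not far above it. Its log2 difference was 0.99 ± 0.24, and 0.52 without anestrus replicate 2. VIPR2, a receptor for vasoactive intestinal peptide, had 191, 155 and 129 CPM in anestrus, 85.2, 60.1 and 96.9 CPM at estrus and 98.4, 115 and 115 CPM in pregnancy. Pregnancy came nearer to anestrus than estrus did for this receptor, whose log2 difference was 0.75 ± 0.19.

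The other leading genes above were ARHGEF3, STUM, CLMP, NCS1 and KCNK12. ARHGEF3, a guanine nucleotide exchange factor, had 36.6, 84.1 and 37.2 CPM in anestrus and up to 36.4 CPM in the active libraries (estrus replicate 3), so its groups barely parted. Its log2 difference was 1.46 ± 0.30, and 0.95 without anestrus replicate 2. KCNK12, a potassium channel subunit, had 1.59, 17.8 and 1.53 CPM in anestrus and 0 to 1.35 CPM in the active libraries. Counts of KCNK12 in the active libraries were 8 or fewer, and its log2 difference of 3.89 ± 0.90 was 1.73 without anestrus replicate 2. CLMP, a cell adhesion protein, had 47.2, 82 and 35.3 CPM against 16.8 to 30.6 CPM, with a log2 difference of 1.09 ± 0.26 that was 0.69 without that library. NCS1, a calcium sensor, lay at 1.14 ± 0.28 and STUM at 1.20 ± 0.24, and without it they were at 1.16 and 1.33. Of the leading genes above that are named here, all but TPPP3 and OVGP1 had an edgeR adjusted p of 0.668; DESeq2 called TPPP3, SAA1, STUM, ARHGEF3, SOCS3, LOXL4 and NBL1. Just past the 15 leading genes in order of p came RPS13 (0.79), a protein of the small ribosomal subunit.

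Lowest against the active stages was CYP21 (ENSBTAG00000001443), a steroid hydroxylase of the route to cortisol and aldosterone that is best known from the adrenal cortex. Its anestrus counts were 4, 0 and 2, or 0.265, 0 and 0.161 CPM. Estrus had 2.35, 2.90 and 0.842 CPM and pregnancy 7.42, 12.6 and 4.76 CPM. All libraries lay in the order anestrus, estrus, pregnancy, and the anestrus values were at or near the level of 3 counts. The log2 difference of -4.93 ± 0.85 (edgeR adjusted p = 0.505; -4.17 without anestrus replicate 2) depends on how near-zero counts are fitted. It was -3.92 ± 0.89 against estrus and -5.94 ± 0.90 against pregnancy, which share the anestrus libraries, and pregnancy minus estrus was 2.02 ± 0.72 (unadjusted p = 0.0178). DESeq2 also called CYP21, the only gene of the 15 lower ones that it called. All these values are those of 1 row of the symbol. Another CYP21 row (ENSBTAG00000047039) had more counts over the 9 libraries together but did not pass the filter on low counts. The steroid synthesis list took that other row, so CYP21 is not among its tested members.

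Next among the genes set apart below are 4 with known parts in lipid metabolism, which were not tested as a group. MVK, mevalonate kinase, had 7.94, 7.66 and 7.65 CPM in anestrus, 20.6, 17.1 and 14.3 CPM at estrus and 8.37, 15 and 14.3 CPM in pregnancy. The 3 anestrus libraries were nearly identical for MVK, and pregnancy replicate 1 came close to them. Its log2 difference was -0.92 ± 0.25 and changed little, to -0.90, without anestrus replicate 2. FADS1, a desaturase that makes polyunsaturated fatty acids, had 47.0, 35.8 and 40.8 CPM in anestrus, 113, 83.9 and 52.6 CPM at estrus and 78.9, 76.9 and 68.5 CPM in pregnancy. Its anestrus values were all under the lowest active one, from estrus replicate 3, with a log2 difference of -0.94 ± 0.23. ERG28, named after a yeast protein that holds sterol synthesis enzymes together, had 24.4, 20.4 and 22.2 CPM against 25.8 to 48.2 CPM (median 41.4), and a log2 difference of -0.81 ± 0.22. PTGES2, a prostaglandin E synthase, had 11.2, 8.61 and 15.3 CPM against 16.3 to 36.0 CPM (median 26.1), with -1.09 ± 0.31. For ERG28 and PTGES2 the lowest active value, again estrus replicate 3, lay just above the highest anestrus one.

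**Figure D2:**
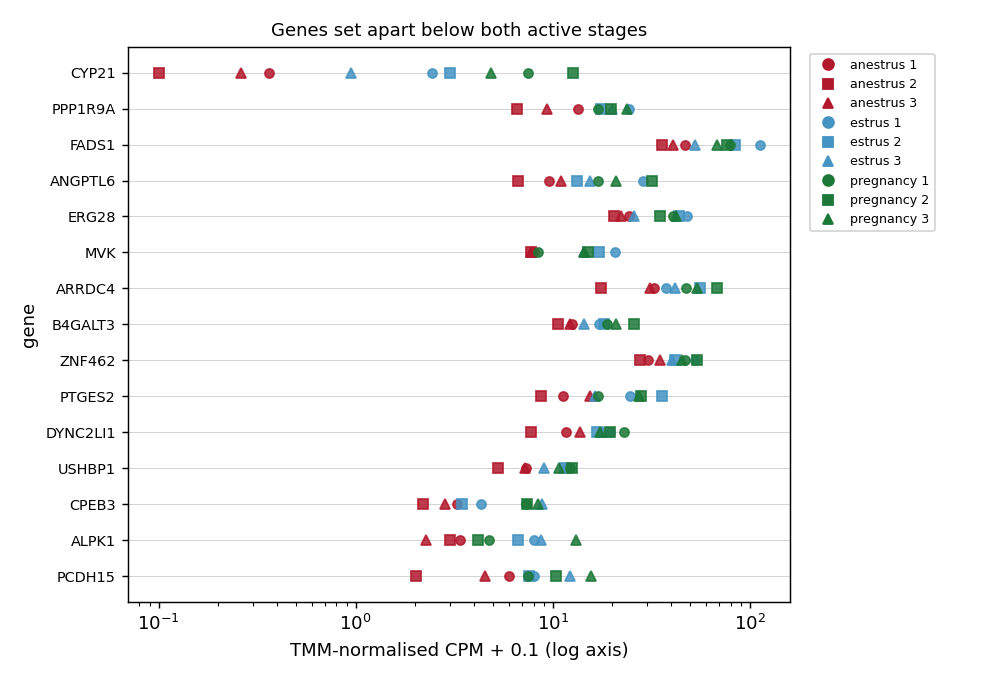
TMM-normalised CPM plus 0.1 on a log axis for the 15 leading genes set apart below both active stages, one point per library. All 3 anestrus points lie left of the 6 active points in each row, with CYP21 near zero in anestrus and the other 14 genes at 1.93 CPM or more.

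The remaining leading genes below had smaller or noisier differences. PPP1R9A, an actin-binding partner of protein phosphatase 1, had 13.4, 6.51 and 9.26 CPM in anestrus and 17.0 to 24.2 CPM (median 19.8) in the active libraries, a log2 difference of -1.06 ± 0.26. ANGPTL6, a secreted angiopoietin-like protein, had 9.52, 6.55 and 10.9 CPM against 13.2 to 31.7 CPM (median 18.9), and -1.23 ± 0.32. ARRDC4, an arrestin-domain protein, had 32.5, 17.4 and 31.2 CPM against 37.4 to 68.0 CPM (median 50.4), and -0.90 ± 0.25. None of the 3 overlapped, and anestrus replicate 2 was the lowest library in each. B4GALT3, a galactosyltransferase, lay at -0.70 ± 0.19, ZNF462, a zinc finger protein, at -0.60 ± 0.17, and DYNC2LI1, a subunit of the dynein that carries cargo back down cilia, at -0.79 ± 0.23. USHBP1 lay at -0.79 ± 0.23 and PCDH15, a protocadherin, at -1.29 ± 0.40. CPEB3, which binds mRNAs and controls their translation, had 3.17, 2.09 and 2.74 CPM against 3.38 to 8.76 CPM and -1.26 ± 0.37. ALPK1, a kinase that senses a bacterial sugar, had 3.31, 2.92 and 2.17 CPM against 4.06 to 13.1 CPM and -1.36 ± 0.41. All but CYP21 had an edgeR adjusted p of 0.668. Without anestrus replicate 2 none of the 15 moved by over 1.5 times. All 15 kept their sign, which their choice as genes set apart made all but certain. The next gene in order of p was ADAMTS16 (-1.98).

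For the leading genes the difference between pregnancy and estrus came from the same fit. It was largest in size for CYP21 and OVGP1 (1.26 ± 0.98), and TPPP3 lay at -1.07 ± 0.25. TPPP3 and CYP21 were the leading genes with an unadjusted p under 0.05 for it (0.00159 and 0.0178). Both differences use the same active libraries, and being set apart favours genes whose active libraries lie close together.

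**Figure D3:**
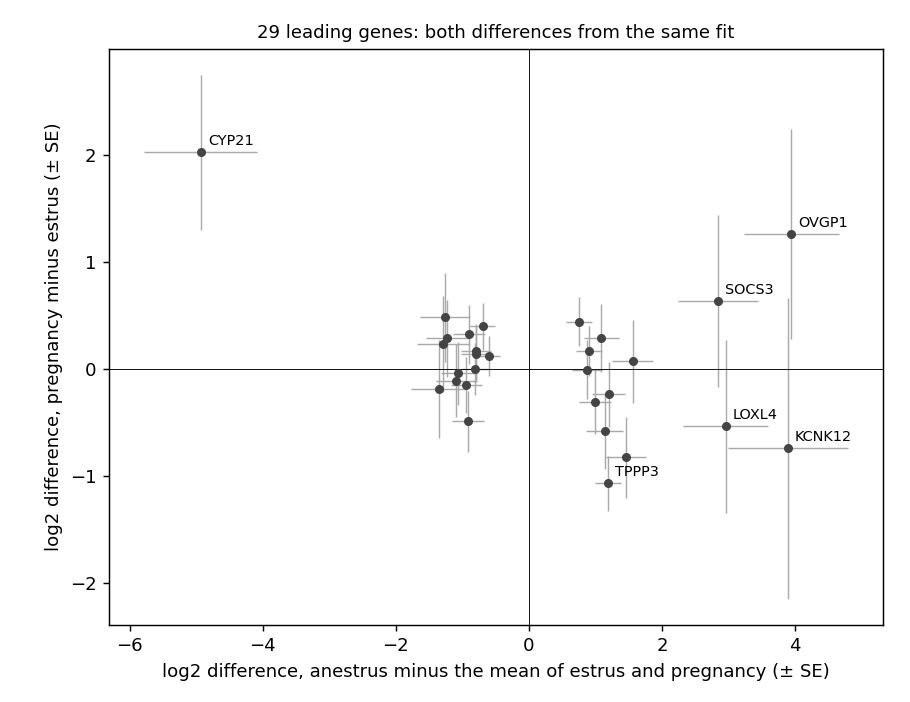
Log2 difference of anestrus minus the mean of estrus and pregnancy (horizontal) and of pregnancy minus estrus (vertical) for 29 leading genes, with SE bars on both axes. Most genes lie near 0 on the vertical axis, while CYP21 stands at -4.93 and 2.02 and TPPP3 at 1.19 and -1.07.

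Most genes of a sterol synthesis list, chosen with earlier results of these data known, lay lower in anestrus, with 0 called in edgeR. Of the 23 tested members of a list of cholesterol synthesis and its regulators, 21 lay below 0 (background 48.6%), 10 at an unadjusted p under 0.05 lower in anestrus (43.5% against 2.59% of all genes) and 0 higher. The median log2 difference was -0.58, against 0.01 over all genes. Without anestrus replicate 2 it was -0.91 with 16 members lower at an unadjusted p under 0.05 (69.6% against 1.11% of all genes). Without anestrus replicate 3 it was -0.46 with 4 (17.4% against 2.47%), and without anestrus replicate 1 it was -0.46 with 6 (26.1% against 4.04%). TM7SF2, a sterol reductase, had 6.88, 3.95 and 3.22 CPM in anestrus, 29.6, 20.2 and 4.72 CPM at estrus and 14.6, 22.3 and 14.3 CPM in pregnancy. Estrus replicate 3 lay among the anestrus values, and the log2 difference was -1.92 ± 0.51. DESeq2 called TM7SF2 (adjusted p = 0.0496). FDFT1, squalene synthase, had 56.3, 78.2 and 63.8 CPM in anestrus, 159, 163 and 84.4 CPM at estrus and 104, 110 and 72.1 CPM in pregnancy, with -0.78 ± 0.25. MVK was the list's 1 member set apart below.

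To follow a list by library, each member's log2 CPM was centred on its mean across the 9 libraries, and these values were averaged into a score. The cholesterol score was -0.56, -0.00 and -0.67 in anestrus, 0.62, 0.65 and -0.41 at estrus and 0.19, 0.25 and -0.07 in pregnancy. Anestrus replicates 1 and 3 lay below all active libraries, and anestrus replicate 2 lay among them, so the groups overlapped. Markers of theca and granulosa cells, which use cholesterol, are given next and overlapped between the groups; their part in the sterol genes' values was not tested.

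All 11 tested theca genes lay below 0 (background 48.6%), with a median of -0.71, and 1 stood at an unadjusted p under 0.05 (9.09% against 2.59%). LHCGR, the luteinising hormone receptor, had 13, 4.11 and 25.5 CPM in anestrus, 64.8, 56.3 and 10.9 CPM at estrus and 66.0, 64.9 and 16.1 CPM in pregnancy. The 3rd library of each active stage fell into the anestrus range, and the log2 difference was -1.74 ± 0.69. INSL3, the insulin-like peptide of theca cells, had 61.3, 108 and 513 CPM in anestrus against 163 to 2027 CPM (median 671), at -1.81 ± 0.83, or -3.24 without anestrus replicate 3. CYP17A1, which makes androgen, had 292, 24.6 and 914 CPM against 285 to 2606 CPM, at -1.54 ± 0.96, or -0.97 without anestrus replicate 2 and -2.91 without anestrus replicate 3. Without anestrus replicate 2 the theca median was -0.31 with 9 of 11 below 0. With anestrus replicate 3 left out instead it was -0.82, and 4 of 11 stood lower at an unadjusted p under 0.05 (36.4% against 2.47%). Summed levels of 4 defining theca markers, none at 0, were 270 to 1619 CPM in anestrus and 651 to 4892 CPM in the active libraries.

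Granulosa genes had a median of -0.68, with 17 of 21 below 0 (81% against 48.6%). At an unadjusted p under 0.05 stood 1 lower (4.76% against 2.59%) and 2 higher (9.52% against 4.41%). BMPR1B, a receptor for bone morphogenetic proteins, was the list's member set apart below, at 78.4, 36.4 and 76.4 CPM in anestrus and 79.1 to 121 CPM (median 98.5) in the active libraries, with -0.65 ± 0.26, or -0.36 without anestrus replicate 2. The gap between its anestrus replicate 1 and estrus replicate 1 was under 1 CPM. TNFAIP6 and PTX3, genes of the expanding cumulus, went the other way, at 15.5, 187 and 4.59 CPM and 57.6, 3446 and 53.5 CPM in anestrus. Both were highest by far in anestrus replicate 2, and DESeq2 called TNFAIP6 (adjusted p = 0.00399). The active libraries had 0 to 6.41 CPM of TNFAIP6, which overlapped with anestrus replicate 3, and 7.74 to 103 CPM of PTX3, which overlapped with anestrus replicates 1 and 3. Leaving out anestrus replicate 2 gave the granulosa genes a median of -0.34. Leaving out anestrus replicate 1 gave -1.21, with 8 genes lower at an unadjusted p under 0.05 (38.1% against 4.04%). Anestrus replicate 1 scored 0.57 on this list and anestrus replicate 2 scored -1.11, so the anestrus libraries differed among themselves as widely as the active ones did, from -0.77 to 1.10.

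Steroid synthesis genes had a median of -0.37, with 14 of 21 below 0 (66.7% against 48.6%) and 3 lower at an unadjusted p under 0.05 (14.3% against 2.59%). HSD3B1, which makes progesterone, had 34.6, 51.2 and 72.4 CPM in anestrus, 76.0, 94.4 and 42.6 CPM at estrus and 161, 283 and 108 CPM in pregnancy. Pregnancy alone lay clear of anestrus for HSD3B1, with -1.81 ± 0.41 against pregnancy and -0.43 ± 0.40 against estrus. NR5A1, the transcription factor of steroid-making cells, had 76.2, 48.8 and 110 CPM against 71.6 to 201 CPM (median 123), at -0.69 ± 0.31, or -0.44 without anestrus replicate 2. Among receptors, PRLR, the prolactin receptor, had 3.24, 0.592 and 2.90 CPM in anestrus, 1.72, 7.45 and 1.35 CPM at estrus and 18.6, 16.4 and 10.1 CPM in pregnancy. It was thus high in pregnancy and not set apart from estrus, at -1.76 ± 0.65 in all, or -1.13 without estrus replicate 2. PGR, the progesterone receptor, lay at 0.51 ± 0.20, or 0.14 ± 0.24 against estrus and 0.87 ± 0.24 against pregnancy.

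**Figure D4:**
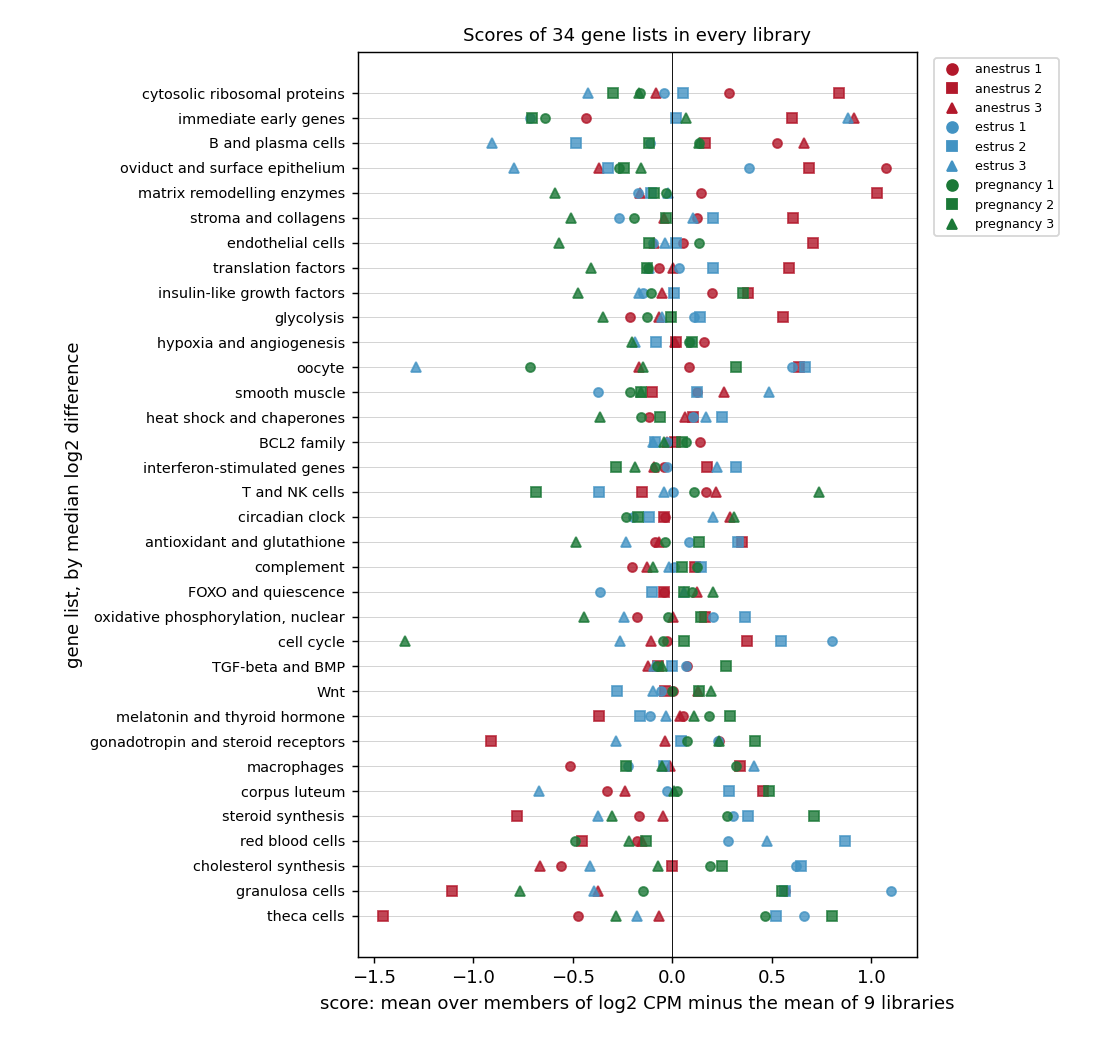
Scores of 34 gene lists in each library, in order of the lists' median log2 difference, as mean log2 CPM of the members minus the mean of the 9 libraries. Anestrus replicate 2 lies far from the other anestrus libraries for many lists, and B and plasma cell genes are the list whose 3 anestrus scores (0.17 to 0.66) all lie above the 6 active ones (-0.91 to 0.13).

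Ribosomal protein genes were higher in anestrus, most of all in 1 library. These proteins build the cytosolic ribosome, and the translation of their mRNAs is regulated jointly. Of 77 tested members 76 lay above 0 (background 51.4%), 48 at an unadjusted p under 0.05 (62.3% against 4.41%) and 7 set apart above (9.09% against 1.24%), with a median log2 difference of 0.55. Without anestrus replicate 2 the median was 0.29 and 74 lay above 0. In that fit 1 stood higher at an unadjusted p under 0.05 (1.30% against 1.56% of all genes). Leaving out anestrus replicate 1 gave 42 such genes (54.5% against 5.08%). Leaving out anestrus replicate 3 gave 66 (85.7% against 5.24%). The score was 0.29, 0.84 and -0.08 in anestrus, -0.04, 0.05 and -0.42 at estrus and -0.16, -0.30 and -0.17 in pregnancy, so anestrus replicate 3 overlapped the active libraries. RPS13 had 115, 147 and 75.9 CPM in anestrus, 69.8, 70.6 and 57.1 CPM at estrus and 72.6, 58.5 and 63.1 CPM in pregnancy. RPS3 had 277, 411 and 232 CPM, 197, 231 and 172 CPM, and 193, 166 and 201 CPM in the same order. Both were set apart, though RPS3 by a hair, with log2 differences of 0.79 ± 0.21 and 0.67 ± 0.20; RPS3 was at 0.41 without anestrus replicate 2. Near-identical copies of these genes are common, and reads may be divided between them.

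Translation factors were also mostly higher, with 37 of 41 above 0 (90.2% against 51.4%), 6 at an unadjusted p under 0.05 (14.6% against 4.41%) and 5 set apart above (12.2% against 1.24%). Their median was 0.23. It was 0.05 when anestrus replicate 2 was left out, 0.40 when anestrus replicate 1 was, and -0.07 with log2 library size in the model. EEF1B2, an exchange factor of elongation, had 123, 234 and 117 CPM in anestrus and 69.4 to 105 CPM (median 91.1) in the active libraries, at 0.80 ± 0.24, or 0.41 without anestrus replicate 2. EEF1A1, the abundant elongation factor, had 1376, 2093 and 1123 CPM against 688 to 1153 CPM, at 0.82 ± 0.24 (0.54 without anestrus replicate 2), and overlapped through anestrus replicate 3 and estrus replicate 2. In the deposited pathway annotation, 10 of the 72 annotated genes set apart above belonged to the ribosome (13.9%, against 2.93% of annotated genes tested). Metabolic pathways held 6 of the 72 (8.33%) and 17 of the 49 annotated genes set apart below (34.7%), against 20.7%. These shares are a description without a test.

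B and plasma cell genes had the one list score that did not overlap, with 0.53, 0.17 and 0.66 in anestrus, -0.11, -0.48 and -0.91 at estrus and 0.13, -0.12 and 0.13 in pregnancy. That is 1 of 34 lists, where 2.3% of single genes were set apart. Of 14 tested members 11 lay above 0 (78.6% against 51.4%), 4 at an unadjusted p under 0.05 (28.6% against 4.41%), with a median of 0.49, or 0.42 without anestrus replicate 2. POU2AF1, a B cell coactivator, was set apart with 3.04, 2.45 and 4.91 CPM in anestrus, 0, 0.193 and 0 CPM at estrus and 2.23, 1.01 and 2.38 CPM in pregnancy. Pregnancy came close to anestrus for this gene, whose log2 difference was 0.91 ± 0.65 over pregnancy and 5.17 ± 0.88 over estrus. The second depends on counts of 2 or fewer. DESeq2 called POU2AF1 (adjusted p = 0.0288). MZB1, a chaperone of antibody secretion, had 57.7, 25.6 and 34.7 CPM in anestrus, 14.7, 12.3 and 2.53 CPM at estrus and 21.7, 21.7 and 26.8 CPM in pregnancy, at 1.37 ± 0.41. Summed levels of 6 defining markers, all with counts, were 100 to 205 CPM in anestrus and 13.6 to 217 CPM in the active libraries, and overlapped. Genes of T and NK cells had a median of 0.04 with 0 of 22 at an unadjusted p under 0.05, and those of macrophages -0.11 with 5 of 19 above 0.

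Matrix, stroma and endothelial lists lay mostly above 0, and 0 of their members stood at an unadjusted p under 0.05 without anestrus replicate 2. Without that library only 1.56% of all genes stood higher and 1.11% lower. In lists of 22 to 26 genes, 0 is near those shares. Matrix remodelling enzymes had a median of 0.39 with 24 of 26 above 0 and 9 higher (34.6% against 4.41%) and 1 lower at an unadjusted p under 0.05, against 0 in either direction without anestrus replicate 2. Their median was 0.25 without it and -0.09 with log2 library size in the model. ADAMTS4, a protease of proteoglycans, had 76.9, 6419 and 121 CPM in anestrus and 36.3 to 139 CPM in the active libraries. In this gene anestrus replicate 2 stood alone and anestrus replicates 1 and 3 lay inside the active range. Stroma and collagen genes had a median of 0.28 (23 of 26 above 0; 5 at an unadjusted p under 0.05, or 19.2%, and 0 without anestrus replicate 2). It was 0.21 without that library and 0.06 with log2 library size in the model. LUM, lumican, was the one set apart, at 1919, 2706 and 1921 CPM in anestrus against 1024 to 1844 CPM (median 1346), with 0.65 ± 0.23, or 0.12 with log2 library size in the model. Endothelial genes had a median of 0.27, which was 0.08 with anestrus replicate 2 left out and 0.42 with anestrus replicate 3 left out. It turned to -0.07 with log2 library size in the model. Of 22 endothelial genes 3 stood higher at an unadjusted p under 0.05 (13.6%), and 0 without anestrus replicate 2.

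Immediate early genes, which answer signals within minutes, all lay above 0 (28 of 28; 8 at an unadjusted p under 0.05, or 28.6% against 4.41%), with a median of 0.54 that was 1.23 with log2 library size in the model. Leaving out anestrus replicate 1, 2 or 3 gave a median of 0.82, 0.43 or -0.01. Their scores were -0.43, 0.60 and 0.92 in anestrus, -0.71, 0.02 and 0.88 at estrus and -0.64, -0.70 and 0.07 in pregnancy. The spread within stages was wider than the difference between them, and SOCS3 was the only member set apart. Hypoxia and angiogenesis genes had a median of 0.16 and 0.00 without anestrus replicate 2, with 3 of 31 set apart above: EPAS1, FGF2 and PDGFB, a growth factor for pericytes, the last outside the rule for naming and named after its value was seen. EDNRB, an endothelin receptor, had 123, 87.2 and 48.5 CPM in anestrus against 35.1 to 66.5 CPM and overlapped through estrus replicate 3. Its log2 difference was 0.98 ± 0.28, and 0.63 without anestrus replicate 1.

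IGF1, which amplifies gonadotropin action in follicles, had 189, 265 and 86.2 CPM in anestrus, 105, 90.8 and 108 CPM at estrus and 41.8, 33.1 and 75.6 CPM in pregnancy. Anestrus replicate 3 lay below all 3 estrus libraries, so the gene was apart from pregnancy but not from estrus; its log2 difference was 1.35 ± 0.33. C3, the central complement protein, had 219, 175 and 130 CPM in anestrus and 164 to 574 CPM (median 336) in the active libraries, at -1.05 ± 0.36, with an overlap through estrus replicate 3. Several other lists had medians near 0: -0.03 for nuclear-encoded oxidative phosphorylation (1 of 75 at an unadjusted p under 0.05), -0.03 for the cell cycle (0 of 38), 0.04 for the circadian clock (1 of 21), 0.05 for interferon-stimulated genes (0 of 30), 0.07 for the BCL2 family (0 of 20), -0.04 for the TGF-beta and BMP pathway (5 of 33) and -0.08 for Wnt (1 of 32). The cell cycle median was -0.40 against estrus, 0.32 against pregnancy and -0.62 with log2 library size in the model. Medians were farther from 0 for insulin-like growth factors (0.20), glycolysis (0.18) and red blood cells (-0.39, of 3 genes tested). Only 5 of 22 oocyte genes passed the filter, and none of the 5 was at an unadjusted p under 0.05.

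Rows annotated as retroelement-like were a further part of the genes set apart below. Of 246 such rows tested, which carry symbols of transposable element proteins, 219 lay below 0 (89% against 48.6% of all genes). At an unadjusted p under 0.05 lower in anestrus stood 67 (27.2% against 2.59%). Set apart below were 17 (6.91% against 1.06%), with 0 above. They made up 11.5% of the genes set apart below and 1.77% of all genes tested. Their median log2 difference was -0.98, against -0.62 when anestrus replicate 2 was left out and -1.69 when anestrus replicate 1 was. The score was 0.35, -1.45 and -0.75 in anestrus, 0.74, -0.01 and 0.83 at estrus and -0.02, -0.48 and 0.80 in pregnancy. Anestrus replicate 1 lay among the active libraries, and the shallowest library, pregnancy replicate 3, was among the highest. Such rows are repeats, and reads could be divided among copies. Without anestrus replicate 2, 21 of 250 rows (8.4%) stood lower at an unadjusted p under 0.05, against 1.11% of all genes. Without anestrus replicate 1 it was 147 of 249 (59.0%), against 4.04%. The share of these rows, like that of all genes, thus moved with the choice of anestrus libraries.

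**Figure D5:**
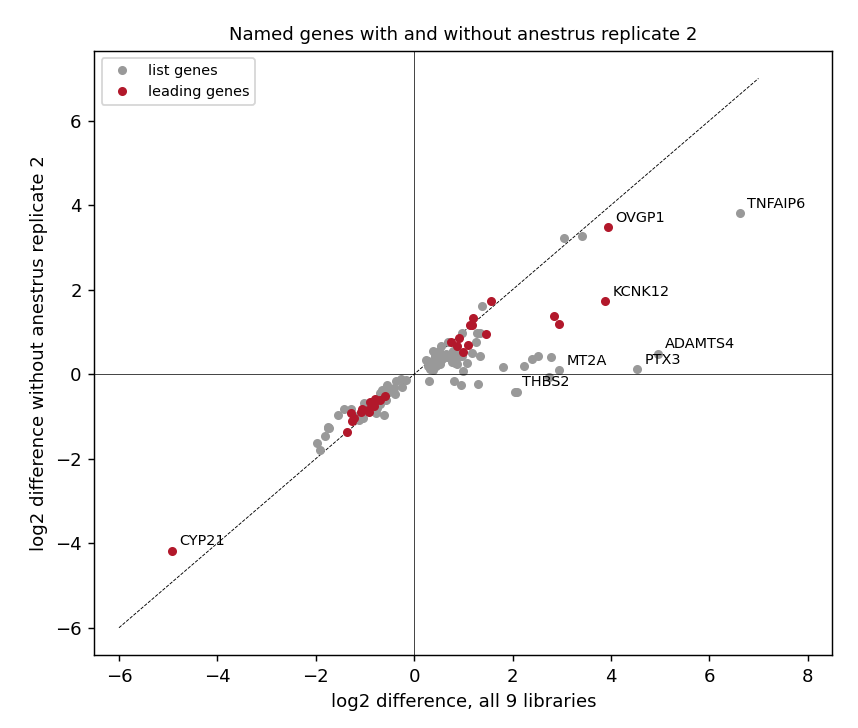
Log2 difference (anestrus minus the mean of estrus and pregnancy) of the named genes with all 9 libraries (horizontal) and without anestrus replicate 2 (vertical), with the line of equal values dashed and 29 leading genes in red. PTX3, MT2A and THBS2 lie near or below 0 without that library and ADAMTS4 at 0.48, while OVGP1 and CYP21 are at 3.48 and -4.17.

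Of the 30 leading genes, 6 moved by over 1.5 times without anestrus replicate 2, all of them among the 15 higher ones (ARHGEF3, SOCS3, LOXL4, KCNK12, CLMP and EPAS1). Among genes named for their lists, HK2, the hexokinase of glycolysis, had 18.1, 379 and 22.0 CPM in anestrus against 16.6 to 28.8 CPM in the active libraries. Metallothionein MT2A had 22.2, 461 and 24.2 CPM against 8.93 to 34.8 CPM, and the collagen-binding THBS2 447, 7354 and 557 CPM against 525 to 974 CPM. In these 3 genes anestrus replicates 1 and 3 lay within or below the active range, and only anestrus replicate 2 stood out.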

How the data were processed

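Per the submitters' processing notes, the tools included Bowtie2 and RSEM. The sources used here do not give the releases or the genome build. The deposited tables hold estimated counts, which the authors made per gene and library, and these were used. They also hold FPKM values of the authors, not used in tests, and, per the file headers, a log2 fold change and a p-value with an FDR for each pair of stages, quoted only as the authors' deposited table; its test is not stated. The 3 tables of stage pairs were joined by identifier (21652 genes, 3563 at 0 in all libraries, 657 without a symbol; 0 values differed between tables).

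The counts were whole numbers and were tested with edgeR 4.0.16 in R 4.3.3 (filterByExpr, TMM factors, quasi-likelihood F test on a model of the 3 stages, Benjamini-Hochberg adjustment over 13936 genes with 99.9% of the counts). DESeq2 1.42.0 and limma 3.58.1 were alternatives. Genes were named by rule: with a symbol, not retroelement-like, at a mean of 5 CPM or more in the higher group and set apart, the 15 of smallest unadjusted p in each direction; and the 3 tested members of smallest p in each of 34 lists (914 of 942 entries matched a gene). Some genes that the rule names are not reported here. The comparison, the lists and the rule were chosen with earlier results of these data known. The procedure was tested on simulated counts with known changes in anestrus. It called 13 of 50 genes changed 2-fold and 47 of 50 changed 4-fold, with 11 false calls. The changed genes were drawn only from genes with higher counts. All libraries otherwise shared the same mean levels, with none standing off as anestrus replicate 2 does. Changes of 2-fold can thus be missed, and the rates for larger changes may not hold in these data. Replicate numbers were taken as names only. No pair of libraries agreed within sampling noise (lowest chi-square per degree of freedom 15.4 over 36 pairs). Counting error is covered by the model, not by separate intervals. No sequence was used here.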

Additional observations from a re-analysis of the deposited data

Results flagged for a closer look

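Among the 6 active libraries, a screen of 65 sets of values (the 30 leading genes, 34 list scores and the total counts) asked whether the highest or lowest library stood off from the other 5 by Dixon's ratio of gap to range. About 1 in 20 sets would pass by chance if the sets were independent. The 65 sets share libraries, and the leading genes were chosen through these same values, so that rate is no guide here. In all, 4 sets passed. Each was pregnancy replicate 3 at the low end, the library with 1468504 counts: STUM (ratio 0.706), LOXL4 (0.729), the endothelial list (0.642, score -0.57) and the matrix remodelling list (0.735, score -0.59).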

How the results depend on the processing

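In edgeR 0 genes were called under every edgeR alternative run: other scalings and filters, thinned counts, library size as a covariate, a 2-group fit, and leaving out each library (smallest adjusted p 0.064 to 0.961, the highest without anestrus replicate 2, with 374 genes at an unadjusted p under 0.05). DESeq2 called 24, and limma-voom 0. With the replicate number as a block in edgeR 0 were called (smallest adjusted p 0.165, with 1140 genes at an unadjusted p under 0.05). The labels do not pair the libraries. Deviations of same-numbered libraries correlated at -0.029 to 0.261, with 5 of 9 pairs over 0.1. The block turned no leading gene's sign, which the choice of those genes made likely.

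Counts set apart above were 280 with no filter on low counts (1.55% of 18089 genes tested). Thinned without pregnancy replicate 3 they were 292 above (2.19%) and 264 below (1.98%). Without anestrus replicate 2 and pregnancy replicate 3 together they were 616 (4.37%) and 456 (3.23%). Leaving out 1 library gave 244 to 570 above (1.70% to 4.06%) and 185 to 560 below (1.29% to 4.00%), since fewer libraries overlap less often. The share that interchangeable libraries would give rises in the same way. The larger counts with libraries left out are thus no sign of more genes set apart by stage. The way of thinning was changed after its first results were seen. With all libraries thinned to the shallowest, 16 of the 27 leading genes tested were still set apart. None of the 30 leading genes turned sign in those of the 22 alternatives that tested it, which their choice as genes set apart made likely. The stricter filter tested 28 of them, thinning 27, and thinning without pregnancy replicate 3 tested 29. LOXL4, KCNK12, ALPK1 and PCDH15 were at 0.43, 0.52, -0.54 and -0.46 with log2 library size as covariate.

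Of 123 named genes 16 turned sign somewhere. With library size as covariate these were PTX3 (-0.12), OXT (-0.64), KIT (-0.11), ZP2 (-0.57), KLRD1 (1.34), GZMB (-1.19), PECAM1 (-0.057), FOSL1 (-1.32), DNAJB1 (0.050), STAT2 (-0.0055), MT2A (-0.35) and MT1A (-1.75). Without anestrus replicate 2 and pregnancy replicate 3 they were PTX3 (-0.12), KIT (-0.25), ZP2 (-0.26), HK2 (-0.085), GZMB (-0.28), THBS2 (-0.52), CDKN1A (-0.11), MT2A (-0.076) and MT1A (-0.68). Under limma-voom GZMB was -0.11 and MT1A -0.036, and thinned without pregnancy replicate 3 ZP2 was -0.0092. Leaving out 1 library gave KIT -0.16 to 1.16, ZP2 -0.17 to 1.22, HK2 -0.060 to 3.26, GZMB -0.26 to 1.5, THBS2 -0.42 to 2.56, HBA -0.069 to 0.64, CDKN1A -0.23 to 1.72 and MT1A -0.42 to 2.59. The causes were not tested. Medians of 11 of 34 lists kept their sign in every alternative run, and 10 turned without anestrus replicate 2. The red blood cell list had no value with the stricter filter, and genes under a filter have none there. Depth limits low genes most: 1 library had 1468504 counts.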
